A study of Mus musculus with 49 samples.

Results

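A set of 36 mouse genes that hepatocytes use to make plasma proteins and to run liver metabolism was followed through every library of the series. The members were chosen by name, from a list of hepatocyte genes, and all 36 were found among the 55487 genes of the count table. By role they were 6 plasma carriers and lipoproteins (Alb, Ttr, Apoa1, Apoa2, Apob, Apoc3), 5 coagulation genes (Fga, Fgb, Fgg, F2, Serpinc1), the transcription factor Hnf4a, 4 urea cycle enzymes (Cps1, Otc, Ass1, Asl) and 3 enzymes of glutamine and ornithine (Glul, Oat, Gls2). The others were 3 cytochromes P450 (Cyp2e1, Cyp1a2, Cyp2f2), 3 gluconeogenic enzymes (Pck1, G6pc, Fbp1), 8 enzymes that break down amino acids or their products (Hal, Sds, Tat, Hpd, Fah, Gldc, Glyctk, Dhtkd1) and 3 genes of the SLC10 and SLCO transporter families (Slc10a1, Slc10a5, Slco1b2).

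The mice carried a human HER2 transgene (HuHER2), were palpated for mammary tumors from 7 months of age, and received 1 intravenous injection of phosphate-buffered saline (PBS) or of BP, an iron oxide nanoparticle known here by its code name, at 5 mg Fe per mouse, once a tumor was found. All 6 mice, the PBS controls included, therefore carried the transgene and a mammary tumor; the promoter of the transgene was not given in the sources used here. Each organ gave 3 PBS and 3 BP bulk libraries (liver, lung, tumor, lymph node, spleen, bone marrow). The other part of each nanoparticle-holding organ of the BP mice was dissociated and passed over a magnet to collect nanoparticle-associated (NA) cells, giving 3 NA libraries for each of liver, tumor, spleen and marrow, and a single lymph node NA library from BP mouse 2. The design text puts collection at day 7 and a protocol label at day 31.

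Hepatocytes secrete albumin, lipoproteins and clotting factors into the blood, and convert ammonia to urea and amino acids to glucose. The work is divided along the lobule: periportal hepatocytes carry most urea synthesis and gluconeogenesis, and pericentral hepatocytes carry glutamine synthesis and much of the drug metabolism by cytochromes P450. Messages for secreted proteins are translated at the endoplasmic reticulum, whereas those for cytosolic and most mitochondrial enzymes are translated on free ribosomes. Intravenous iron oxide particles are taken up mainly by the macrophages and sinusoidal endothelial cells that line the liver's blood spaces rather than by hepatocytes.

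Library totals ran from 9362264 to 19734849 counts, so that 3 counts, the floor used here, stood for 0.152 to 0.32 CPM (the count of a gene per 1000000 counts of the library). Levels below are CPM of the library total unless another scale is named. Liver libraries were marked by the members themselves, with Alb between 55770 and 72540 CPM in bulk liver. The lung surfactant gene Sftpc stood at 12300 to 27500 CPM in lung, and 6 mammary epithelial markers summed to 8750 to 17800 CPM in bulk tumor. Transcripts of the mitochondrial genome made up 48.16% to 57.15% of counts in liver NA libraries, against 5.666% to 7.063% in the BP livers they came from. Nothing in the labels placed libraries in sequencing batches.

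Compared per length, the 4 highest members in bulk liver were plasma protein genes, though other plasma protein genes such as F2 (432), Apob (278) and Serpinc1 (273 CPM per kb) lay below enzymes such as Cyp2e1 (2860) and Ass1 (1120). Length here was the union of all annotated exons, 8546 bases for Serpinc1 and 2414 for Ass1, so the order depends on the annotation. Before division by length the medians of Serpinc1 and Ass1 were close, at 2330 and 2710 CPM. Alb, the main carrier protein of plasma, had a median of 25800 CPM per kb of exon over the 6 bulk livers, followed by Apoa2 at 10800, Apoa1 at 4340 and Ttr at 3420 CPM per kb. At the other end stood Slc10a5 at 8.26, the mitochondrial dehydrogenase gene Dhtkd1 at 18.8, the glycine cleavage gene Gldc at 19.9 and the glucose-releasing phosphatase gene G6pc at 21.1 CPM per kb. The 6 livers differed by gene in how tightly they held these levels. The coefficient of variation (CV, SD over mean) was 3.37% for Otc, the mitochondrial step that makes citrulline, whose levels were 552.3, 590.4 and 598.9 CPM in PBS and 591.5, 601.9 and 608.3 CPM in BP livers. It was 39.4% for G6pc, which spanned 3.21 times between 25.37 and 81.44 CPM. The median CV of the members was 12.9%, against 10.2% over the 4045 genes at 30 CPM or more in bulk liver, and 25 of the 36 members lay above that median. Single mice set many of the extremes: PBS liver 1 was the highest of the 6 for 10 members and the lowest for 13, and BP liver 3 was the highest for 11.

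**Figure D1:**
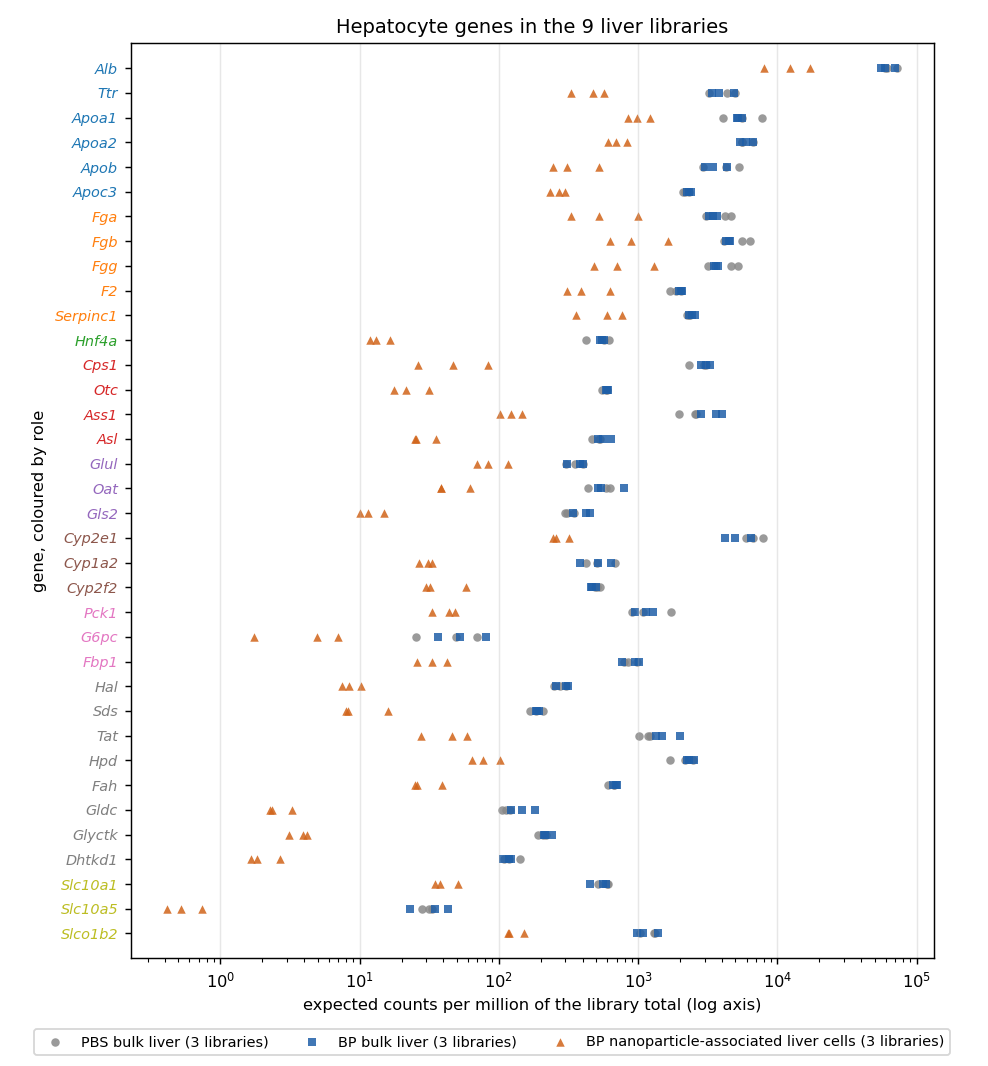
Levels of the 36 members in the 9 liver libraries, in CPM on a log axis, by role, with 1 point per library and the groups PBS bulk, BP bulk and nanoparticle-associated cells in separate colors. The PBS and BP points of most members lie together, and the nanoparticle-associated points lie lower for every member, less so for Alb and the clotting genes.

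The first comparison asked whether the liver's own program moved with the nanoparticle. None of the 36 members, all of which passed the filter on low counts, was called between BP and PBS liver by edgeR's quasi-likelihood test (adjusted p 0.999 for each), where 0.0235% of the 12740 genes tested were called. At an unadjusted p under 0.05 there were 4 members, beside 454 of all genes tested. DESeq2 called 0 members and 34 genes, and the count was 0 under every alternative run. The median log2 change of the members was -0.016 beside 0.001 over all genes tested, and single members ran from -0.461 (Cyp2e1) to 0.502 (Ass1). With 3 mice a group, changes of this size could not be told from the spread between mice.

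Groups of 3 that did not overlap were counted as a description. In the higher direction these were Ass1, Tat and Gldc (3 of 36, beside 4.64% of all genes tested), and in the lower direction Cyp2f2 alone (1 of 36, beside 3.74%). Ass1, which joins citrulline to aspartate in the urea cycle, stood at 1963, 2548 and 2607 CPM in PBS livers and 2818, 3618 and 4031 CPM in BP livers, a log2 difference of 0.502 ± 0.164 (SE, unadjusted p = 0.0135 by edgeR). Every BP liver lay above every PBS liver, and the lowest BP liver was close to the highest PBS liver. Tat, the first enzyme of tyrosine breakdown, stood at 1012, 1177 and 1213 CPM in PBS and 1491, 1345 and 2010 CPM in BP livers (0.458 ± 0.172 log2, SE). Gldc, the glycine decarboxylase of the mitochondrial glycine cleavage system, was at 105.8, 112.9 and 119.3 CPM against 123.0, 182.6 and 147.3 CPM. For Gldc the gap between the groups was smaller than the range of the BP livers. The neighbours of these genes in the same pathways lay closer to 0: Cps1, the entry step of the urea cycle, read 2958, 3056 and 2322 CPM in PBS and 3272, 2847 and 3094 CPM in BP livers, and Asl, the step after Ass1, read 464.7, 536 and 523.6 against 516.5, 560.3 and 643.1 CPM. The groups overlapped for Cps1 and Asl.

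The secreted members leaned the other way without a call. Of the 11, 8 had a negative log2 value, led by the fibrinogen chains Fgb at -0.345 and Fgg at -0.339, then Apob at -0.297 and the chain Fga at -0.274. Fgb read 6385, 5572 and 4138 CPM in PBS livers and 4275, 4477 and 4602 CPM in BP livers. PBS livers 1 and 2 were high and PBS liver 3 lay below all 3 BP livers, so the groups overlapped. Among liver genes outside the set, 10 of 10 other secreted carriers (median -0.143) and 8 of 9 other coagulation genes (median -0.154) were negative, and 10 of 12 other genes of amino acid breakdown were positive (median 0.052), with 0 called in each of these lists by edgeR. All were read in the same livers, so these and later counts of signs in liver describe few mice rather than many genes. Signs near 0 also moved with the scale: 17 of the 36 members were positive in the main fit and 22 with library totals.

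Cytochromes and gluconeogenic enzymes showed wide mouse-to-mouse spread. Cyp2e1, a pericentral P450 that oxidises ethanol, read 7854, 6691 and 5923 CPM in PBS and 6430, 4210 and 4993 CPM in BP livers (-0.461 ± 0.196 log2, SE), with BP liver 1 inside the PBS range. Cyp2f2, a periportal P450, read 506.8, 493.5 and 530.9 against 499.5, 455.7 and 466.2 CPM, which overlap on library totals and not on the TMM scale (trimmed mean of M-values, edgeR's scaling) on which overlap was counted. G6pc read 69.83, 25.37 and 48.84 CPM in PBS and 36.58, 52.8 and 81.44 CPM in BP livers, fully interleaved. Pck1, the enzyme that commits oxaloacetate to glucose, read 1734, 1090 and 896.6 against 956.5, 1140 and 1274 CPM. PBS liver 1 was the highest PBS liver for G6pc and Pck1 alike. Hnf4a, a nuclear receptor that drives many hepatocyte genes, read 424, 569.5 and 616.7 in PBS and 568.5, 529.1 and 550 CPM in BP livers, and the groups overlapped.

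The remaining pathways were read step by step. Tyrosine breakdown runs from Tat through Hpd, a dioxygenase, to Fah, which splits fumarylacetoacetate. Hpd read 1681, 2161 and 2492 CPM in PBS and 2230, 2311 and 2517 CPM in BP livers, and Fah 606.4, 676.4 and 672.5 against 655.6, 696.9 and 705.7 CPM. Both overlapped, so of the 3 steps Tat alone separated the groups. Gls2, which frees ammonia from glutamine for the urea cycle, read 309.4, 348.6 and 297.7 against 341.6, 422.1 and 452.3 CPM (0.285 ± 0.141 log2, SE), with BP liver 1 inside the PBS range.

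For Apoa1 and Apob the BP livers lay inside the range of the PBS livers. Apoa1, the main protein of high density lipoprotein, read 7712, 5570 and 4096 CPM in PBS livers and 5533, 5116 and 5191 CPM in BP livers, and Apob 5301, 4308 and 2901 against 4329, 3427 and 3038 CPM. Apoc3, an inhibitor of triglyceride clearance, was among the steadiest members, with 2154, 2089 and 2335 CPM in PBS and 2244, 2325 and 2381 CPM in BP livers. Of the uptake carriers, Slc10a1, the sodium-dependent bile salt carrier of the hepatocyte's blood side, read 595.1, 610 and 518.6 against 591.5, 447.9 and 555.9 CPM, and overlapped.

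Markers of other cells were read in the same livers. All 9 Kupffer cell markers (liver macrophages) had positive values after BP (median log2 0.217), as did 6 of 6 lung epithelial markers (median 0.856, summed level 32.8 to 123 CPM in PBS and 87.6 to 129 CPM in BP liver), with 0 called in either list. Their part in the members' values was not tested. In bulk tissue fewer cells of a type and less RNA per cell cannot be told apart.

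**Figure D2:**
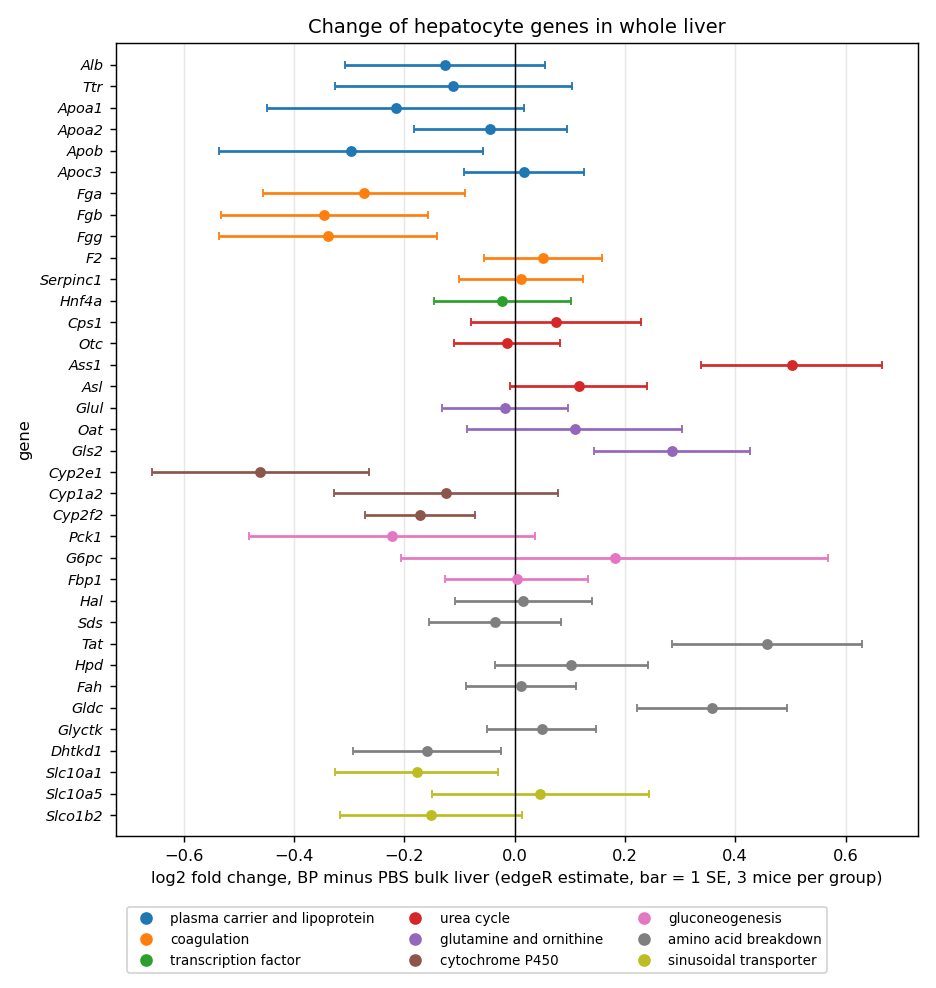
Log2 change of each member in BP against PBS liver (edgeR, points with SE bars), ordered by role, with a line at 0. Values run from -0.461 for Cyp2e1 to 0.502 for Ass1, and no member passed the adjusted threshold.

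Zonation was summarised within each library as the mean log2(CPM + 1) of 11 periportal members minus that of 4 pericentral members. The difference was -0.592, -0.86 and -0.966 in PBS livers and -0.903, -0.384 and -0.502 in BP livers, which overlapped and whose means differed by 0.21 (0.0797 with other zonated genes and 0.0583 without the most abundant member of each zone). Glul, the glutamine synthetase of the hepatocytes around the central vein, read 303.2, 352.5 and 400.8 CPM in PBS and 382.9, 398.7 and 308.7 CPM in BP livers, and Oat, which works with it in the same cells, 435.9, 583.7 and 630.4 against 538.1, 513.8 and 786 CPM. Neither pericentral gene separated the groups.

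The second comparison asked how much of the hepatocyte program was still present in the liver cells held by the magnet. Every member had a lower value in NA cells than in bulk liver of the same BP mice, and 34 of 36 fell by edgeR's quasi-likelihood test, beside 37.5% of the 13247 genes tested that were called lower. The exceptions were Fgb (-1.10 ± 0.463 log2, SE, adjusted p = 0.0554) and Fgg (-1.14 ± 0.466, adjusted p = 0.0503). The median log2 change of the members was -3.27, beside 0.009 over all genes tested. The scale mattered for size but not for direction: with library totals in place of TMM the medians were -4.11 and -0.803, and the split of all calls moved from 4939 higher and 4968 lower to 2681 higher and 6892 lower. The BP bulk livers entered both this comparison and the one with PBS.

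How far a member fell differed by what its protein does. Cps1, which fixes ammonia in the mitochondrial matrix, read 3272, 2847 and 3094 CPM in BP bulk and 83.51, 26.43 and 46.46 CPM in NA cells (-5.14 ± 0.303 log2, SE, adjusted p = 7.45e-07 by edgeR). The highest NA library, of mouse 1, held 2.55% of its bulk partner. Dhtkd1, of mitochondrial lysine breakdown, read 122, 118.8 and 107.4 against 2.664, 1.665 and 1.833 CPM (-5.0 ± 0.134, adjusted p = 1.53e-07). Hnf4a read 568.5, 529.1 and 550 CPM in bulk and 16.64, 13.01 and 11.82 CPM in NA cells (-4.47). Glyctk (glycerate kinase), Gldc and the transporter gene Slc10a5 fell by 5.05, 5.0 and 5.12 on the log2 scale, with Slc10a5 at 0.4162 to 0.7331 CPM in NA cells, close to the floor. In each mouse these 6 members were at 0.928% to 3.18% of their bulk level.

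Plasma protein genes kept more. Alb read 55770, 59190 and 70270 CPM in BP bulk and 7952, 17050 and 12300 CPM in NA cells, and was still the member with the highest level there (-1.35 ± 0.547 log2, SE, adjusted p = 0.0482). Serpinc1, the gene of antithrombin, which inactivates thrombin, read 2310, 2421 and 2546 against 356.6, 765 and 602.3 CPM (-1.12, adjusted p = 0.0301). F2, the gene of prothrombin itself, read 2074, 2018 and 1953 against 307.6, 624.4 and 392 CPM (-1.23). NA library 2 was the highest of the 3 for Alb, Serpinc1 and F2 and for each fibrinogen chain, while it was the lowest for Cps1. Apob, the structural protein of very low density lipoproteins, had less left, at 244.2, 526.5 and 307.1 CPM of 4329, 3427 and 3038 CPM (-2.35).

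The share kept by the small apolipoproteins depended on the scale. Apoa2 read 5350, 5986 and 6690 CPM in bulk and 610.8, 696.9 and 825 CPM in NA cells, which on library totals is 11.4%, 11.6% and 12.3% of bulk in mice 1, 2 and 3, beside 14.3%, 28.8% and 17.5% for Alb. On the TMM scale Apoa2 was at 14.3%, 24.8% and 19.7%. Mouse 2 was the highest for 9 of the 11 secreted members on library totals and for all 11 on the TMM scale.

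Most membrane proteins, though not Slc10a5, lay between the secreted proteins and the enzymes. Slc10a1 read 591.5, 447.9 and 555.9 CPM in bulk and 34.96, 50.88 and 37.57 CPM in NA cells (-2.77 ± 0.313 log2, SE, adjusted p = 4e-05), and Slco1b2 1387, 1087 and 980.8 against 116.9, 151.3 and 118 CPM (-2.25 ± 0.291). The P450s, which sit in the membrane of the endoplasmic reticulum, fell by 3.35 (Cyp2e1), 3.2 (Cyp1a2) and 2.61 (Cyp2f2) on the log2 scale. For both carriers and for Cyp2e1, Cyp1a2 and Cyp2f2 mouse 2 held the highest percent of bulk, as for Alb.

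Enzymes of the cytosol and the mitochondrion fell further. After Cps1, the urea cycle steps Otc, Ass1 and Asl fell by 3.84, 3.99 and 3.5 on the log2 scale, and their percent of bulk on library totals was 5.32%, 3.6% and 2.92% for Otc, 5.18%, 2.81% and 3.04% for Ass1 and 6.86%, 4.44% and 3.93% for Asl in mice 1, 2 and 3. Which mouse was highest turned on the scale: for the 11 cytosolic members it was mouse 1 in 10 on library totals and in 4 on the TMM scale, and for the 6 mitochondrial members in 6 and in 3. Gluconeogenic Pck1 and Fbp1 each fell by 3.91, and of the amino acid enzymes Tat fell by 4.41, Hal by 4.22, Hpd by 4.03, Fah by 3.69 and Sds by 3.35.

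The level in NA cells as a percent of bulk in the same mouse, taken on library totals unless said, follows. The means over the 3 mice were 23.6% for Serpinc1, 23.5% for Fgb, 22.6% for Fgg, 21.9% for F2 and 20.2% ± 7.64 (SD, n = 3) for Alb. With mitochondrial transcripts left out of the totals these means were higher, at 49.2%, 49.3%, 47.5%, 45.8% and 42.1%. Apoa1 stood at 19.4%, Fga at 17.5%, Apoa2 at 11.8%, Apoc3 at 11.6%, Ttr at 11.3% and Apob at 10.4%. All 11 secreted members were therefore at 10.4% or more. Of the 25 others only the bile salt and anion carrier gene Slco1b2 (11.5%) and Glul (25.0%) were as high, and the rest lay between 1.66% (Cps1) and 8.54% (Cyp2f2).

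Grouped by where the protein goes, an assignment made from textbook knowledge after the values had been seen, the median percent of bulk was 19.4% for 11 secreted, 7.57% for 7 membrane, 3.74% for 11 cytosolic and 2.46% for 6 mitochondrial members, and 2.51% for Hnf4a, the single nuclear member. The order secreted, membrane, then cytosol and mitochondrion was not the same in every mouse: mouse 1 had 13.8%, 4.92%, 5.18% and 3.51%, mouse 2 had 27.1%, 9.36%, 3.25% and 1.88%, and mouse 3 had 17.5%, 6.39%, 3.04% and 2.13%. The secreted median was the highest in each mouse. Outside the mitochondrial genome the medians over the mice were 40.1% secreted, 15.8% membrane, 7.55% cytosolic and 4.91% mitochondrial, and on the TMM scale 33.3%, 13.2%, 5.96% and 3.85%, so the levels moved with the scale and the order of the 4 did not. F2 and the tyrosine breakdown gene Hpd, which had like levels in bulk liver, were at 14.8%, 30.9% and 20.1% of bulk for F2 and 4.54%, 3.35% and 2.55% for Hpd in mice 1, 2 and 3.

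Hepatocyte genes outside the set were listed by role rather than by destination, and the secreted lists again kept the most, with transporters next. The median percent of bulk was 18.9% for 10 other secreted carriers and 20.8% for 9 other coagulation genes, against 3.34% for 5 other urea and ammonia genes, 3.49% for 8 bile acid and lipid genes, 3.87% for 7 glucose genes, 3.61% for 12 amino acid genes, 4.77% for 8 transcription factors and 8.9% for 4 transporters. The 9 coagulation genes and 12 amino acid genes all fell by edgeR, with medians of -1.31 and -3.97 log2, and 9 of the 10 secreted carriers did (-1.48).

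Glul stood apart from the other enzymes. It read 382.9, 398.7 and 308.7 CPM in bulk and 116.8, 69.82 and 83.12 CPM in NA cells (-1.2 ± 0.137 log2, SE, adjusted p = 4.34e-05), a smaller fall than that of its zone partner Oat (538.1, 513.8 and 786 against 62.32, 38.39 and 38.49 CPM, -2.92). Glutamine synthetase is also made by many cells outside the hepatocyte. Glul was present in all 40 libraries of the other organs, at 20.87 to 591.3 CPM. So were Oat (56.36 to 233.1 CPM), Ass1 (36.91 to 232.9 CPM) and Asl (14.53 to 58.14 CPM). Oat, Ass1 and Asl fell further than Glul in liver NA cells, from higher levels in bulk liver. The liver NA values of Glul, Ass1 and Asl lay inside these ranges. For Oat 62.32 CPM lay inside, and 38.39 and 38.49 CPM lay below. The part of other cells in the levels of Glul, Oat, Ass1 and Asl was not tested. The periportal minus pericentral difference was -1.67, -1.75 and -1.59 in NA cells, lower than in bulk by 1.07 on average, and Glul is 1 of its 4 pericentral members. With other zonated genes (10 periportal and 12 pericentral) in place of the members the shift was 0.0614, so the lower value held for the members and not for those genes.

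Which calls held depended on the role too. All 25 members that are not secreted were called lower under each of the 13 alternatives, whereas of the 11 secreted members only Apob and Apoc3 were. Alb was called in 7 of 13 (adjusted p up to 0.25) and Fgb and Fgg in 5 of 13. The count was 36 with the mouse as a block and without NA library 2, 30 without NA library 3 and 28 in a fit over 48 libraries.

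Other cell types moved in the same libraries. Summed levels of 8 sinusoidal endothelial markers were 322 to 439 CPM in BP bulk and 2560 to 5230 CPM in NA cells (8 of 8 higher by edgeR), whereas 9 Kupffer markers were at 861 to 1380 and 384 to 1700 CPM (3 of 9 higher, none lower). Cholangiocyte markers went from 14.3 to 24.6 CPM to 141 to 278 CPM (5 of 5 higher), B and T lymphocyte markers from 5.47 to 11.1 to 58.8 to 94.4 CPM (6 of 6), and stellate markers from 243 to 266 to 75 to 200 CPM. The mitochondrial share, 48.16% to 57.15%, rose with them while Cps1, Dhtkd1 and other nuclear-encoded genes of mitochondrial enzymes fell. The part of cell makeup, of mitochondrial transcripts and of free RNA in the retained levels was not tested.

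**Figure D3:**
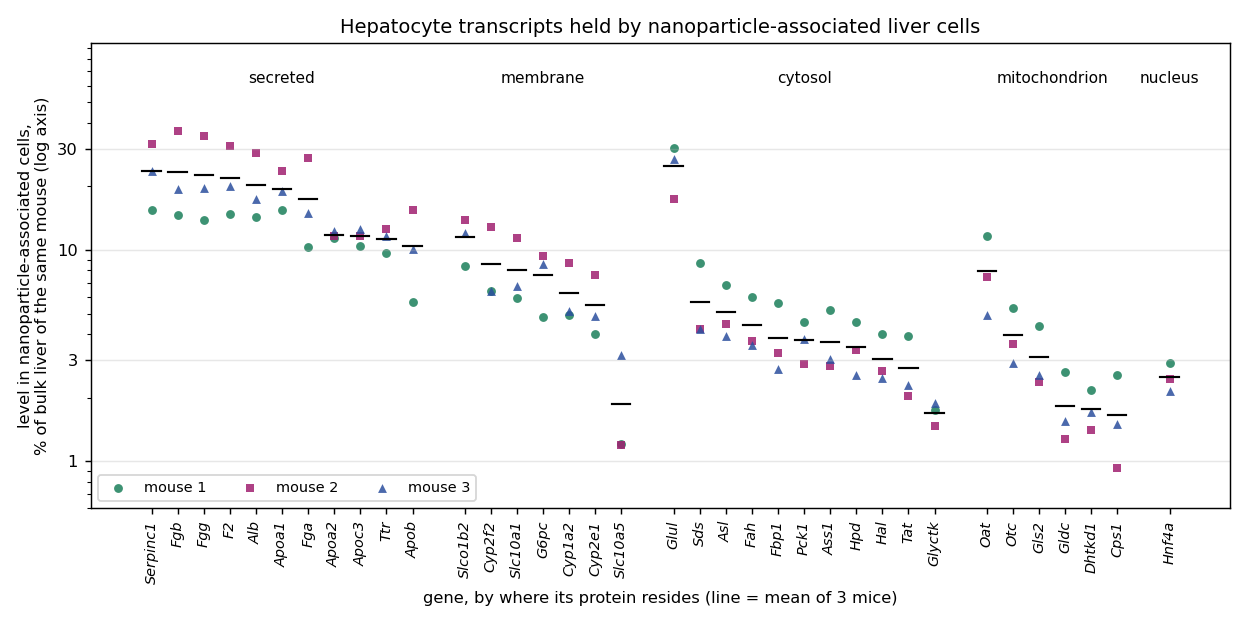
Level of each member in liver nanoparticle-associated cells as a percent of bulk liver of the same mouse (log axis, 1 point per mouse, short line at the mean), grouped by the destination of the protein. Secreted members lie between 10.4% and 23.6% on average, Glul at 25.0%, and the other cytosolic members at 5.69% or less.

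The upstream sequences of Alb and of the 3 neighbouring fibrinogen genes are shown because these genes are among those with the most left in NA cells, and the fibrinogen chains moved together in liver. Each is the 250 bases before the annotated start, 5′ to 3′ on the gene's strand, from RefSeq on GRCm38.p6: Alb chr5:90460620-90460869 (plus strand), Fga chr3:83025903-83026152 (plus), Fgb chr3:83049864-83050113 (minus) and Fgg chr3:83007474-83007723 (plus). Capitals mark GTTAAT or its reverse complement ATTAAC, the core half-site of HNF1, a hepatocyte transcription factor, searched on both strands.
Alb: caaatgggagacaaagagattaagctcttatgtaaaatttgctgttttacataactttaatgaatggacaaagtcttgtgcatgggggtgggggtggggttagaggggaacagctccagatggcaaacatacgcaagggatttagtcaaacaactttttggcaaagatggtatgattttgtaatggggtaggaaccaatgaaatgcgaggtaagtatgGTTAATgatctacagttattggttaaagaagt
Fga: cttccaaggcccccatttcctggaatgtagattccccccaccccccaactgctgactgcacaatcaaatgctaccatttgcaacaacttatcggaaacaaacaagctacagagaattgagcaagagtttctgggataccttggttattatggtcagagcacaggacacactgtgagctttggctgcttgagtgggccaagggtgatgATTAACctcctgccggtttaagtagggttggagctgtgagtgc
Fgb: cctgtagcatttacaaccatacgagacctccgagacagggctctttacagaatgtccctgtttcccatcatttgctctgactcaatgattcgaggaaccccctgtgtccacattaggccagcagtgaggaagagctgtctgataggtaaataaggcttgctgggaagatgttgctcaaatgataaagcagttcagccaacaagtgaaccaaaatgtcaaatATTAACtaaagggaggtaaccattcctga
Fgg: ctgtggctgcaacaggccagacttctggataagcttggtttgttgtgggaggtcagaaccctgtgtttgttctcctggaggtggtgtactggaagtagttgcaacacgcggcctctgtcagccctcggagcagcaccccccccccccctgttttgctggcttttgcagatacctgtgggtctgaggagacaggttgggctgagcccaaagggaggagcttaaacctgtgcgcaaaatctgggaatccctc
The match began 32 bases before the RefSeq start in Alb, 43 in Fga and 29 in Fgb, and Fgg held none. The GENCODE annotation, used for exon lengths, starts Alb at 90460897 and Fga at 83026076, so the Fga match lies inside the GENCODE gene. Of 32817 windows of the same length, 6.44% held it, as did 8 of the 29 members that had an entry (Alb, Fga, Fgb, Hnf4a, Pck1, G6pc, Glyctk, Slco1b2). Fgb, with a match, and Fgg, without, were at 23.5% and 22.6% of bulk in NA cells.

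Outside the liver some members stayed near a trace of liver transcripts and others stood above it. In the 40 other libraries Alb ranged from 1.444 to 501.4 CPM, a median of 0.391% of its liver level. A member was counted as above the trace where its own percent of the liver level was more than 2 times that of Alb in the same library. By that rule 12 members were above in 0 of the 40 libraries (Alb by construction, Ttr, Apoa2, Apob, Apoc3, Fga, Fgb, Cps1, Otc, Cyp1a2, Hpd, Slco1b2), 20 were above in some, and 4 in all 40 (Glul, Oat, Ass1, Asl). The rule had no floor, and some of the 20 were above only where Alb was very low. Tat (0.085 CPM) and Apoa1 (0.3398 CPM) were above only in BP marrow 3. Hnf4a was above there and in marrow NA 1 (0.085 and 0.3898 CPM), and F2 only in BP lymph node 2 (0.9613 CPM).

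By the ratio of 5 enzyme and transporter genes to Alb, the median trace was closer to whole liver than to the liver's NA cells. All 5 come from the members that were never above the trace by the rule just given, which caps this ratio. In the 33 libraries with Alb at 100 CPM or more, the ratio of Cps1 to Alb was 60.3% to 125% of the bulk liver ratio (median 88.1%), whereas in the 3 liver NA libraries it was 3.22% to 17.9%. The ratio of Otc was 71.0% to 141% (median 94.9%) against 12.5% to 37.3% in liver NA cells, and that of Hpd 53.6% to 122% (92.0%) against 11.6% to 31.8%. The ratio of Cyp1a2 was 32.3% to 141% (94.8%) against 29.3% to 34.5%, and that of Slco1b2 46.3% to 165% (92.8%) against 48.3% to 68.8%. The trace range lay above the liver NA range for Cps1, Otc and Hpd, and reached into it for Cyp1a2 and Slco1b2.

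A few libraries stood apart with little trace. Alb was 1.444 CPM in BP marrow 3, 7.797 in BP lymph node 2, 32.66 in BP spleen 3, and 13.39, 13.53 and 11.46 CPM in the NA libraries of tumor, spleen and marrow of BP mouse 1. Their same-organ partners were mostly above 100 CPM, with BP lymph node 3 at 71.85. The summed ratio of those 5 members to Alb as a percent of the bulk liver ratio was not below 71.0% in BP spleen 3 and the libraries richer in Alb, but was 23.2% in tumor NA 1, 36.2% in spleen NA 1, 45.8% in marrow NA 1, 46.1% in BP lymph node 2 and 49.5% in BP marrow 3. Each of these 5 ratios rested on 1 to 8 counts of the 5 members, so that counting error was large. Sftpc, a lung gene, was at 59.05 CPM in BP marrow 3, 144.5 in BP lymph node 2, 114.4 in BP spleen 3 and 32.67 to 83.65 CPM in those 3 NA libraries. In the other libraries outside lung Sftpc ran from 0 CPM (lymph node NA and marrow NA 3) to 133.6 CPM (BP tumor 3, with Alb at 124.6 CPM). Liver NA library 1 held 115.9 CPM. The source of the traces was not tested.

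**Figure D4:**
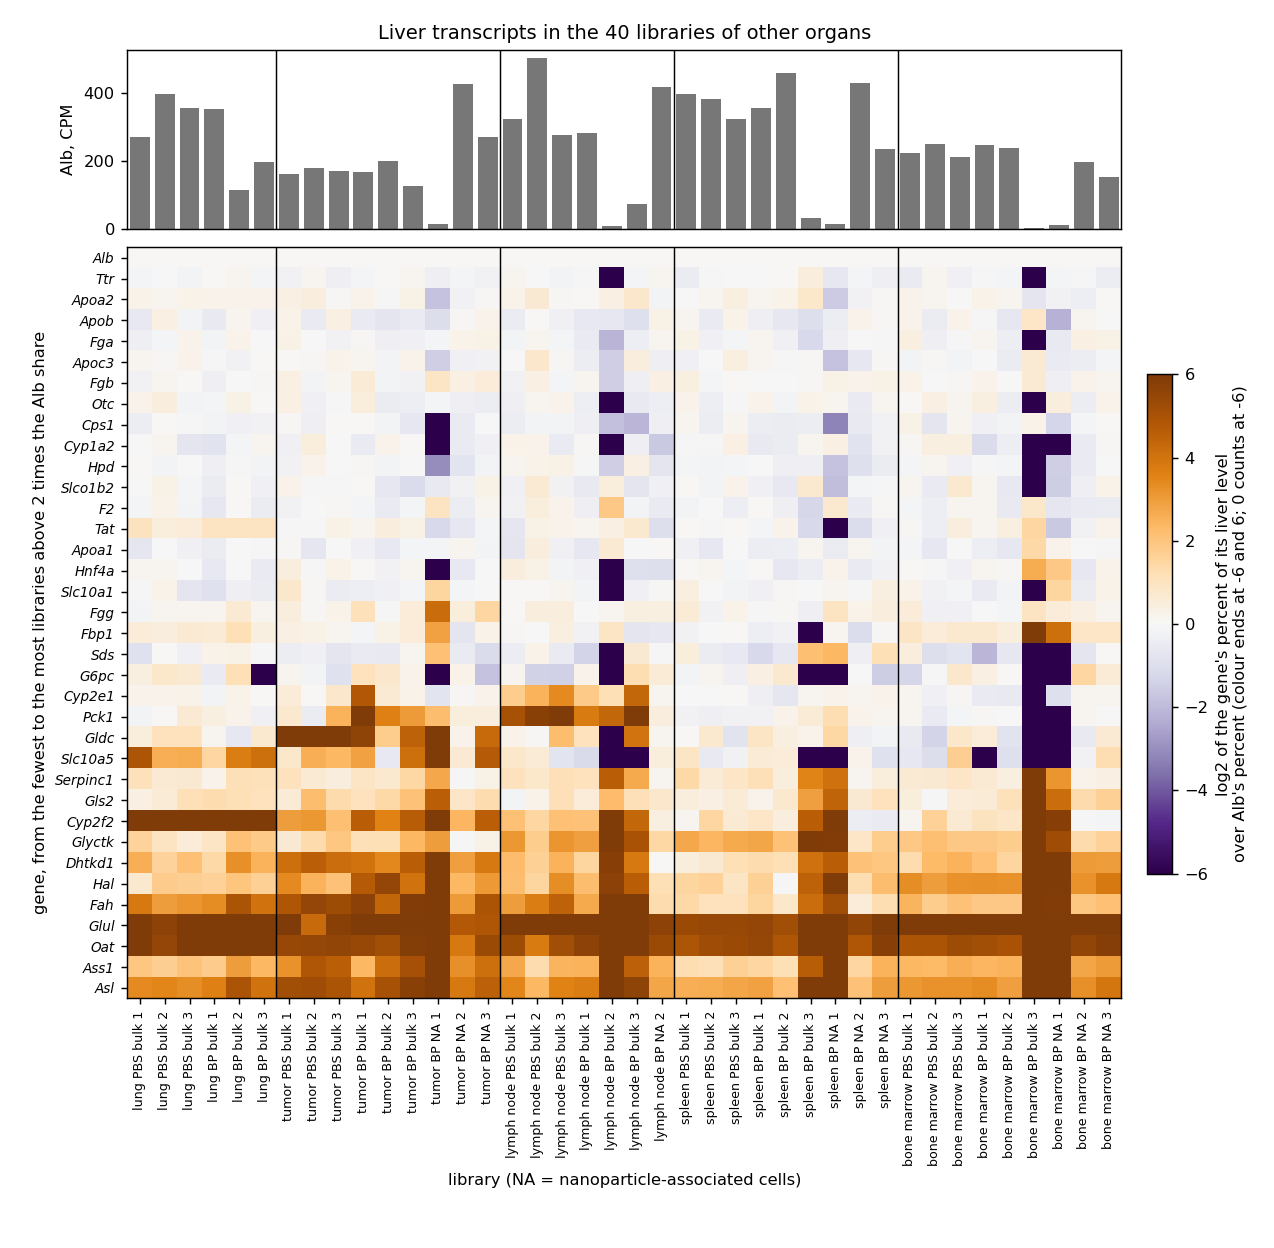
Liver transcripts in the 40 libraries of other organs: bars give Alb in CPM, and the heat map gives, for each member and library, log2 of the member's percent of its liver level over that of Alb, with the colour ending at -6 and 6 and 0 counts at the lower end. The 12 members in the top rows lie near 0 in most columns, with some at 0 counts in libraries low in Alb. Glul, Oat, Ass1 and Asl are high in every column, and Cyp2f2 is high in lung. The lowest Alb bars are those of the 6 libraries between 1.444 and 32.66 CPM.

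The fibrinogen chains, which are made in fixed proportion in the hepatocyte, tracked each other: the ratio of Fgg to Fgb was 0.77 to 0.843 in the 9 liver libraries and 0.618 to 1.44 in the others, apart from 3 libraries. In BP lymph node 2 it was 2.5, at 0.534 and 0.214 CPM, near the floor. In tumor NA cells of mouse 1 Fgg read 14.86 CPM beside 1.9 for Fgb and 0.737 for Fga, a ratio of 7.81, where Alb was 13.39 CPM. In tumor NA cells of mouse 3 Fgg read 45.06 beside 29.7 CPM for Fgb (1.52). Fgg was above the trace in 3 libraries, all of tumor, and it overlaps a gene on the other strand (Gm30097), from which its reads cannot be told apart without strand.

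Genes of arginine and glutamine handling were expressed outside the liver in every organ. Glul read 120.5 to 199.0 CPM in lung, 84.22 to 102.4 in spleen and 103.9 to 119.1 in marrow bulk libraries, beside a liver median of 368 CPM. The Glul range was wider in tumor (20.87 to 576.5) and lymph node (69.11 to 591.3). Oat, which interconverts ornithine and glutamate semialdehyde, read 166.2 to 233.1 CPM in lung, 109.9 to 142.8 in spleen, 63.77 to 84.5 in marrow and 64.26 to 74.22 in tumor. Lung thus held the most Oat outside liver, above every spleen, marrow and tumor bulk library. Ass1 reached its highest bulk levels outside liver in tumor (38.59 to 232.9 CPM) and at 36.91 to 47.14 CPM in spleen. Asl stayed between 14.53 and 58.14 CPM in the bulk libraries of all 5 organs.

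Several breakdown enzymes were above the trace in all 5 organs, at low levels in most. Fah, the last step of tyrosine breakdown, was above the trace in 38 of 40 libraries and read 46.02 to 95.76 CPM in bulk tumor and 35.13 to 43.07 in lung, against 6.456 to 13.55 in spleen and marrow. Hal, which deaminates histidine, was above it in 37, with 9.431 to 11.25 CPM in every bulk marrow library. Dhtkd1 was above it in 37 and Glyctk in 33. Gls2, the liver form of glutaminase, was above it in 22 libraries at no more than 4.935 CPM. Serpinc1 was above it in 17, at up to 39.45 CPM in spleen. Serpinc1, Fgg, Hnf4a, Glul, Gls2, Cyp2f2, Sds, Hpd, Gldc, Glyctk and Dhtkd1 overlap a gene on the other strand. Their low values are uncertain because the strand setting of the counting is not known. Slc10a5 overlaps Gm38303 on its own strand, so its low values are uncertain too, and Oat overlaps Fgfr2 on its own strand.

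Lung held 1 member above the liver. Cyp2f2, a P450 of the club cells that line the airways, read 3562, 1201 and 2270 CPM in PBS lung and 2318, 1316 and 2520 CPM in BP lung, beside a liver median of 497 CPM. The treatments overlapped, and every lung lay above every liver. Cyp2f2 was also above the trace in 3 of 9 spleen and 4 of 9 marrow libraries, all with Sftpc at 16.03 CPM or more. Other spleen and marrow libraries with as much Sftpc were not above it, nor were those with Sftpc at 0.198 CPM or less. In tumor it was above in 9 of 9, with Sftpc from 0.1521 CPM. The source of Cyp2f2 outside lung and liver was not tested. Slc10a5 was above the trace in 6 of 6 lungs, at 0.5296 to 4.408 CPM.

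**Figure D5:**
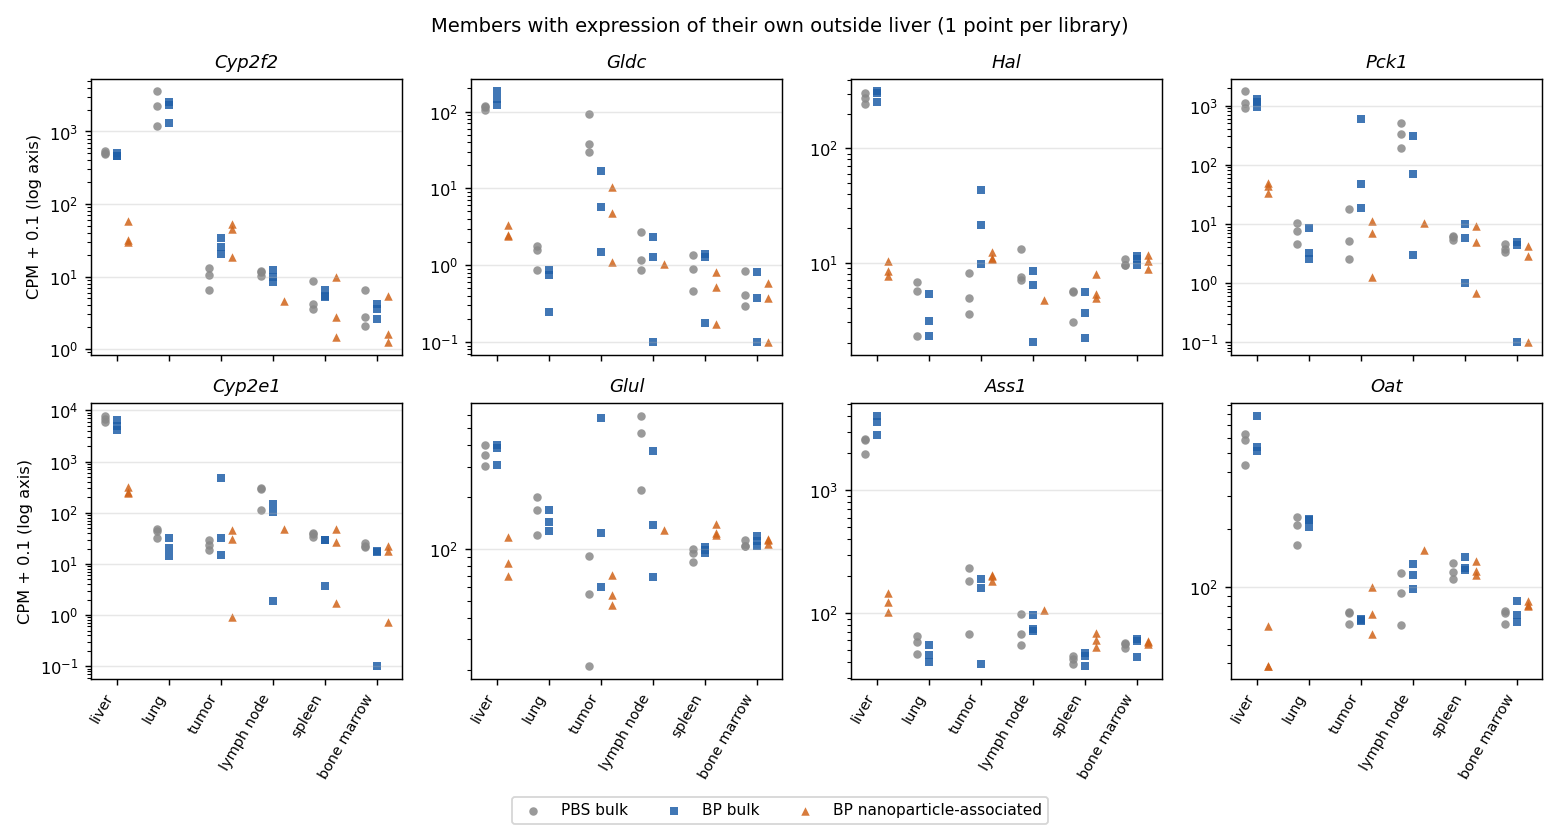
Levels of 8 members in all 49 libraries, as CPM plus 0.1 on a log axis, by organ, with 1 point per library and separate markers for PBS bulk, BP bulk and nanoparticle-associated libraries. Cyp2f2 is higher in lung (1201 to 3562) than in liver, and Gldc is lower in the 3 BP tumors than in the 3 PBS tumors. Outside liver the highest Pck1 and Cyp2e1 points are those of BP tumor 1 and of bulk lymph nodes other than BP node 2. The highest Glul points outside liver are those of BP tumor 1, the PBS nodes and BP node 3.

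In lung, tumor, lymph node, spleen and marrow no member was called between BP and PBS by edgeR, where 0% of the genes tested were called in each organ. In that order, 137 of 15714, 867 of 14535, 554 of 15341, 108 of 15195 and 184 of 13969 genes had unadjusted p under 0.05. Over all genes DESeq2 called 0, 182, 11, 0 and 3 in the same order. Members at an unadjusted p under 0.05 numbered 5 of 34 tested in lung, 6 of 33 in tumor, 9 of 33 in lymph node, 0 of 34 in spleen and 0 of 32 in marrow. DESeq2 called 2 members in tumor (Hal and Pck1) and 0 in each of the other organs. Members left untested, 2 to 4 an organ, had too few counts. The organs share the mice, and a trace moves most members of a library together, so the counts of signs below describe few libraries rather than many genes.

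Tumor values of the members went in both directions (18 positive, 15 negative, median log2 0.0186). Groups that did not overlap were Hal and Cyp2f2 in the higher direction (beside 5.66% of genes tested) and Gldc in the lower (beside 5.15%). Hal read 8.061, 4.852 and 3.474 CPM in PBS tumors and 21.09, 43.5 and 9.72 CPM in BP tumors (2.32 ± 0.638 log2, SE, adjusted p = 0.797 by edgeR). BP tumor 3 was just above PBS tumor 1. Gldc read 29.51, 37.29 and 92.54 CPM in PBS and 16.51, 1.368 and 5.58 CPM in BP tumors (-2.51 ± 0.971, adjusted p = 0.797), and its NA libraries read 4.668, 1.003 and 10.3 CPM. All 3 BP tumors were below the lowest PBS tumor. Cyp2f2 read 10.49, 12.9 and 6.396 against 33.59, 20.09 and 25.74 CPM (1.57 ± 0.429, adjusted p = 0.797).

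The largest tumor values came from 1 library. Pck1 read 4.943, 2.459 and 17.69 CPM in PBS and 586.5, 46.53 and 18.54 CPM in BP tumors, Cyp2e1 23.65, 18.61 and 29.85 against 476.4, 31.55 and 15.06 CPM, and Glul 90.88, 20.87 and 55.11 against 576.5, 124 and 60.24 CPM. BP tumor 1 was the high library in each case. The fat cell gene Adipoq read 868.6 CPM there, 115.9 and 39.78 in the other BP tumors and 0.4653 to 15.48 CPM in PBS tumors. The 6 fat cell markers summed to 270 to 9260 CPM in BP and 6.51 to 181 CPM in PBS tumors, 0 of 6 called, and none was at 0 throughout. Fat cells express Pck1, Cyp2e1 and Glul, and their part in these values was not tested. In NA cells of the same tumors Pck1 read 1.167, 10.96 and 6.782 CPM and Adipoq 1.003 to 1.535 CPM.

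In lymph node the members leaned lower in BP mice, 32 of 33 with negative values and a median log2 of -2.05, beside -0.00635 over all genes tested. For 18 of them the groups did not overlap in the lower direction, beside 3.06% of genes tested, at adjusted p 0.866 throughout. Alb read 324.4, 501.4 and 276.5 CPM in PBS and 281.3, 7.797 and 71.85 CPM in BP nodes, so BP node 1 lay inside the PBS range for Alb on this scale. The median moved to -1.47 without BP node 2, -3.45 without BP node 1 and -1.27 without PBS node 2. Pck1 read 195.2, 502.5 and 330 against 70.72, 2.884 and 310.7 CPM, and Cyp2e1 113.6, 290.5 and 299.2 CPM against a range of 1.816 to 150.1 CPM over the 3 BP nodes. Adipoq levels were 147.6, 542.3 and 516.8 CPM in PBS and 115.1, 8.225 and 562.4 CPM in BP nodes, and BP node 2 was the lowest for Pck1, Cyp2e1 and Adipoq. The fat markers summed to 1980 to 9810 CPM in PBS and 221 to 5520 CPM in BP nodes, and 6 of 6 had negative values with 0 called. Their part was not tested.

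The other organs gave smaller medians. In lung 31 of 34 values were negative (median -0.609, -0.962 to -0.368 with each library left out in turn). Groups did not overlap for Hnf4a, Slc10a1, Dhtkd1 and Serpinc1 in the lower direction (beside 2.57% of genes tested) and for Oat in the higher (beside 1.85%). Oat, a gene that lung expresses, had means of 199 and 222 CPM on the TMM scale in PBS and BP lung, a log2 difference of 0.153 ± 0.148 (SE). In spleen 28 of 34 were negative (median -0.349), with Cyp2e1 and Slco1b2 lower without overlap (beside 2.17%). Without BP spleen 3, the library low in Alb, 22 of 34 were positive and the median was 0.135. In marrow 27 of 32 were negative (median -0.432), with Cyp2e1 and Cyp1a2 lower without overlap (beside 2.86%), and the median was -0.0404 without BP marrow 3.

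NA cells of the other organs were compared with bulk of the same mice. In spleen 3 of 33 members tested passed edgeR's test. Ass1 rose, with 68.62, 52.65 and 60.79 CPM in NA cells and 44.74, 47.14 and 36.91 CPM in bulk (0.657 ± 0.162 log2, SE, adjusted p = 0.0170), and Glul rose from 98.67, 102.4 and 94.64 to 121.2, 124.1 and 140.5 CPM (0.556 ± 0.145, adjusted p = 0.0208), beside 20.2% of genes called higher. Glyctk fell from 8.633, 6.886 and 7.14 to 2.889, 2.732 and 2.768 CPM (-1.25 ± 0.204, adjusted p = 0.00384), beside 22% of genes called lower. The groups did not overlap for any of the 3. Glyctk was called under every alternative, while Ass1 and Glul were lost with totals outside the mitochondrial genome, in the fit over 48 libraries and without NA library 3, and Glul also without NA library 2, bulk library 1 or bulk library 3 (Ass1 called in 10 of 13 alternatives, Glul in 7). With the mouse as a block 4 members were called. With background shares this high, 3 members of 33 is no result about the set.

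In tumor 0 of 34 members tested were called between NA cells and bulk by edgeR (2 at an unadjusted p under 0.05, 2 called by DESeq2), beside 9.04% of genes. In marrow 0 of 32 were called (1 unadjusted, 0 by DESeq2), beside 7.69%. The arginine-making gene Ass1 in tumor read 38.59, 161.7 and 188.2 CPM in BP bulk and 198.9, 182.9 and 205 CPM in NA cells, the NA values close together and 2 of them above all 3 bulk values, of which BP tumor 1 was far lower. Its level in the NA cells of liver was 146.1, 101.8 and 122.6 CPM, of spleen 52.65 to 68.62 CPM and of marrow 55.96 to 59.53 CPM, and in the single lymph node NA library 106.8 CPM. Tumor NA cells were the highest of these, and liver NA cells, from an organ with a bulk median of 2710 CPM, were next, around the single lymph node value. The fall of Ass1 in liver NA cells differed from its change in tumor by 4.84 and in spleen by 4.83 on the log2 scale (adjusted p = 3.44e-10 and 3.55e-10, edgeR contrasts of the fit over 48 libraries, chosen after seeing the data). Of all genes, 44.3% and 43.3% passed these 2 contrasts. The same contrast for BP against PBS between liver and tumor passed for 0.443% of genes and for neither Cyp2f2 (-1.73, adjusted p = 0.322) nor Gldc (2.93, adjusted p = 0.145).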

How the data were processed

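Bulk organs and magnet-sorted cells were measured by RNA-seq in 49 libraries. The authors deposited expected counts per gene from RSEM 1.3.1 after STAR 2.7.9a on mm10 with cutadapt 3.5 and FastQC 0.11.9, per the submitters' processing notes. The annotation release and strand setting are not given in the sources used here, and 13 members overlap another gene. Symbols and exon lengths came from GENCODE M21 (GRCm38), and promoters from RefSeq on GRCm38.p6, which held 29 of the 36 members.

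After rounding to whole numbers, each of 10 comparisons was fitted on its own 6 libraries by edgeR 4.0.16 in R 4.3.3. The quasi-likelihood F-test was two-sided, scaling was TMM, genes passed filterByExpr at min.count 10, and p-values were adjusted by Benjamini-Hochberg across every gene tested, with calls at 0.05. DESeq2 1.42.0, other scalings, filters and designs were alternatives, and the fit was tested on simulated data. Levels are CPM of library totals, and totals of 9362264 to 19734849 put 3 counts at 0.152 to 0.32 CPM. Groups were counted as not overlapping on TMM-scaled values.

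NA and bulk libraries of 1 number come from the same BP mouse, so they are paired. The correlations of their deviations from the group means were 0.148, 0.058 and 0.011 in liver, -0.041, 0.381 and 0.311 in tumor, 0.546, 0.688 and -0.101 in spleen and 0.126, 0.416 and 0.093 in marrow. The main fits left out this pairing, and the fit with the mouse as a block was an alternative. PBS and BP mice of 1 number are different mice. Replicates are single mice, and the single lymph node NA library entered no test.

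The text names all 36 members. Of other listed genes it gives counts per list, plus genes past the threshold or up to 3 per list, and those named beyond this (Adipoq, Sftpc) were chosen after their values were seen. The members and lists were chosen with earlier results of these data known. Left out were protein sequences and promoters with no entry in the table used.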

Additional observations from a re-analysis of the deposited data

Results flagged for a closer look

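Several members moved one way in 1 organ and the other way in another, with all samples of each group apart on the TMM scale. Between liver and tumor, BP against PBS, Cyp2f2 was lower in liver and higher in tumor (difference of the log2 changes -1.73, adjusted p = 0.322) and Gldc higher in liver and lower in tumor (2.93, adjusted p = 0.145). Neither difference passed the test, an edgeR contrast in a fit over 48 libraries that was chosen after the data were seen.

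Between NA cells and bulk, Ass1 was lower in liver and higher in tumor (-4.84, adjusted p = 3.44e-10). Against spleen the liver differences were -4.83 for Ass1 (adjusted p = 3.55e-10), -1.93 for Glul (adjusted p = 0.0289), -5.29 for Hal (adjusted p = 1.45e-08) and -3.2 for Oat (adjusted p = 1.12e-11). All 5 passed the same kind of contrast, as did 44.3% (liver and tumor) and 43.3% (liver and spleen) of all genes. The positive changes of Hal and Oat in spleen and of Ass1 in tumor were not called on their own. Oat in spleen was higher in NA cells on the TMM scale and lower on library totals, where it read 142.8, 121.9 and 125.4 CPM in bulk and 136.6, 115.2 and 120.5 CPM in NA cells.

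The single lymph node NA library, which entered no comparison, lay above all 6 bulk lymph nodes for 4 members. It read 32.75 CPM for Apob, 106.8 CPM for Ass1, 155.2 CPM for Oat and 4.054 CPM for Gls2. The highest bulk node read 32.49, 97.94, 131.5 and 3.468 CPM for these genes, so the gap was narrow for Apob and Ass1, and with 1 library there is no replicate check.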

How the results depend on the processing

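The count of members called between BP and PBS stayed at 0 under every alternative in liver, lung, lymph node, spleen and marrow. In tumor it was 2 with DESeq2 and 4 in the fit over 48 libraries. Between NA cells and bulk the liver count ran from 28 to 36. The tumor count of 0 became 2 with DESeq2, 1 with no filter and 4 in the fit over 48 libraries, and 0 to 2 with each library left out (2 without BP bulk 3). The spleen count of 3 became 1 with totals outside the mitochondrial genome, 1 in the fit over 48 libraries, and 1 to 4 with each library left out (1 without NA 3). The marrow count of 0 ran from 0 to 1 (1 without NA 1). With the mouse as a replicate block the counts were 36 in liver, 4 in spleen and 0 in tumor and marrow, and 0 for every BP against PBS comparison. The mean Alb level in liver NA cells was 12400 CPM, 27700 with totals outside the mitochondrial genome and 34400 with TMM over 49 libraries. The zonation shift of -1.07 was 0.0614 with other zonated genes and -1.29 without the most abundant member of each zone. Relative to Ttr in place of Alb, the median percent of bulk in liver NA cells moved from 99.8% to 174% for secreted members and from 19.0% to 30.8% for cytosolic, mitochondrial and nuclear ones. Where no construction is named, the cause was not tested. With 3 mice a group, and members outside liver often near the 3-count floor, small changes were not detectable.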
